A study of Rattus norvegicus with 9 samples.

Results

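The probes of 6 antioxidant and glutathione genes, Gpx1, Gsta1, Txn1, Glrx, Hmox1 and Slc7a11, were followed across DNA methylation arrays of rat dopaminergic cells. Each gene was matched through the RefSeq accession of its probe, and a probe was taken if it occupied exactly 10 spots on the array. All 6 genes had 1 such probe each. These 6 probes belong to 1390 gene probes printed at 10 spots, among 30367 gene probes in all. The genes were chosen by their place in the authors' deposited table, whose signal-to-noise values come from these same arrays and which lists some of them for some treatments and not for others. Differences between groups over all 10 spots are therefore given as a description, and a test is given on spots that table did not print.

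Genomic DNA came from N27 cells, a rat dopaminergic neural cell line, that had been given manganese (Mn) or MPP+ (1-methyl-4-phenylpyridinium) at a dose the labels call sublethal, or had been kept as control cells. Sonicated, denatured DNA was hybridised to a rat gene expression array, an antibody against 5-methylcytosine was bound to it, and a Cy3-labelled secondary antibody made the spots fluoresce. All groups shared the line and the protocol, the doses are not in the labels, and the series' design text calls the replicates independent and biological. The arrays used were Mn replicates 1 and 2, MPP+ replicates 1, 2 and 3 and control replicates 1, 2 and 3. The scanner output labelled Mn replicate 3 equals that of control replicate 3 at 100% of spots, whereas the next most alike pair shares 0.677% of spot values, and the output labelled Mn replicate 3 was left out. Because the material is DNA, expression markers cannot check the cell type, and 0 of the dopaminergic marker genes looked up had a ten-spot probe.

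Cells meet peroxides and electrophiles with linked thiol systems. The antiporter Slc7a11 brings in cystine for glutathione synthesis, glutathione peroxidase Gpx1 spends glutathione to reduce hydrogen peroxide, and glutathione S-transferase Gsta1 attaches it to electrophiles. Thioredoxin (Txn1) and glutaredoxin (Glrx) reduce disulfides on proteins, and heme oxygenase Hmox1 breaks down heme, and several of these genes are known targets of the transcription factor NRF2. Mn and MPP+, an inhibitor of mitochondrial complex I, are both used as models of damage to dopaminergic neurons. Methylation of cytosines, in mammals mainly at CpG, is the mark the antibody binds.

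Promoters of 5 of the 6 genes were found in a RefSeq promoter table (rat build GRCr8, 250 bases before to 50 bases after the gene start), and Hmox1 is named only. The promoters with the most and the fewest CpG among these 5 are shown, because CpG is the substrate of the mark, with each CpG in capitals and all else in lower case, written 5′ to 3′ on the strand of the gene. Txn1 lies at chr5:77519636-77519935 on the minus strand and Gsta1 at chr9:31216483-31216782 on the minus strand.
Txn1: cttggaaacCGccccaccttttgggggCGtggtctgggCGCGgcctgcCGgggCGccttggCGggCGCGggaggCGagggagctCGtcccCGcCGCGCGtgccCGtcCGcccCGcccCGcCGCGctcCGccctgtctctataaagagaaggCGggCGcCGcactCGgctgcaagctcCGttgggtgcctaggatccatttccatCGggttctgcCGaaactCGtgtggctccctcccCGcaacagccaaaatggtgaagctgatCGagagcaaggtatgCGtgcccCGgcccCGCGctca
Gsta1: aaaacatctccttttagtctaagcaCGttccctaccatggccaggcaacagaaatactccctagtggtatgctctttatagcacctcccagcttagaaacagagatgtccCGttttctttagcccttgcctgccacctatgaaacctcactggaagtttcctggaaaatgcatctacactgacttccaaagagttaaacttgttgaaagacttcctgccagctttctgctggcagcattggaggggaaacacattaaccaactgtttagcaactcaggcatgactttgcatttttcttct
Txn1 held 36 CpG and Gsta1 held 2, and between them lay Gpx1 with 12, Slc7a11 with 10 and Glrx with 4, against a median of 7 over 27457 rat promoters. The letters TGACNNNGC, the core of the antioxidant response element, were searched on both strands and no other motif was searched. They occurred 1 time in the Gsta1 promoter and 0 times in those of Gpx1, Txn1, Glrx and Slc7a11, and 12.2% of all promoters in the table held them. These windows are context for the genes, since no source used here gives the position of a probe in its gene. Whether a spot's signal comes from DNA that includes the promoter was not tested.

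The measure was the log2 ratio of a spot's median Cy3 intensity to the median of its local background, averaged over the 10 spots of a probe on 1 array, so that 0 is a spot as bright as its surroundings. The arrays were dim. The median spot ran from 165 to 235 intensity units over the 8 arrays and the median background from 156 to 222. The median ten-spot probe lay between 0.09 and 0.23 on the log2 scale, and blank spots (dark corner and negative control spots, 757 an array) averaged 0.12 to 0.21. Spots more than 2 background SDs above their background made up 3.23% of 111200 ten-spot gene spots and 2.91% of 6056 blank spots. Mn, MPP+ and control arrays carry different array rows on the slide in their scanner output, row 3 for Mn, row 1 for MPP+ and row 4 for control, so group and place on the slide cannot be told apart. The MPP+ arrays did not all share a scan position despite their common row. Their smallest vertical scan coordinate was 3549, 3509 and 19179 in replicates 1, 2 and 3. It was 35049 and 34969 on the Mn arrays, and 50799, 50719 and 50829 on the control arrays. The output deposited under both Mn replicate 3 and control replicate 3 carries the row of the control arrays.

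Slc7a11, the cystine importer, averaged 0.20 over the 8 arrays and spread over the control arrays more widely than any other member. On the log2 scale it measured 0.59 and 0.12 on the Mn arrays, 0.24, 0.11 and 0.01 on the MPP+ arrays, and -0.15, 0.54 and 0.09 on the control arrays. Mn replicate 1 and control replicate 2 were high, control replicate 1 was the lowest of the 8, and all groups overlapped. Control replicate 1 stood at -0.15 ± 0.09 and control replicate 2 at 0.54 ± 0.14 (SE over 10 spots each), so control arrays alone ran from below the 5th to above the 95th percentile of all ten-spot probes of their array. Group means were 0.36 ± 0.33 in Mn (SD, n = 2), 0.12 ± 0.12 in MPP+ (SD, n = 3), beside 0.16 ± 0.35 (SD, n = 3) in control. A single-spot probe of Slc7a11 gave a further readout, at 1.58 and -0.39 on the Mn arrays, -0.23, 0.34 and 0.56 on the MPP+ arrays, and 0.003, -0.06 and 0.22 on the control arrays. That spot was above its background on Mn replicate 1 alone, where the ten-spot probe was also high, with an intensity of 618 over a background of 206. Of the 8 arrays, that one also had the highest share of blank spots above background, 4.49%. On control replicate 2, where the ten-spot probe was at 0.54, the single spot was at -0.06.

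Gpx1, the cytosolic glutathione peroxidase, averaged 0.17 over the 8 arrays, at the 50.4th percentile of the 1390 probes. It measured 0.41 and 0.07 on the Mn arrays, 0.16, -0.09 and 0.03 on the MPP+ arrays, and 0.10, 0.39 and 0.30 on the control arrays. The MPP+ arrays were low, but their highest lay above the lowest control array, so the groups overlapped. The control values leaned on single bright spots, since the brightest spot reached 2.70 on control replicate 2 and 3.46 on control replicate 3, where the median of the 10 spots was -0.07. Means were 0.24 ± 0.24 in Mn (SD, n = 2), 0.03 ± 0.13 in MPP+ (SD, n = 3), beside 0.26 ± 0.15 (SD, n = 3) in control.

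Gsta1, a glutathione S-transferase of the alpha class, averaged 0.26 over the 8 arrays, at the 91.1st percentile, and had 7 of its 80 spots above background. It measured 0.08 and 0.43 on the Mn arrays, 0.39, 0.08 and -0.10 on the MPP+ arrays, and 0.58, 0.22 and 0.38 on the control arrays. MPP+ replicate 3 was the lowest and control replicate 1 the highest, and the groups overlapped. Means were 0.26 ± 0.25 in Mn (SD, n = 2), 0.12 ± 0.24 in MPP+ (SD, n = 3), beside 0.39 ± 0.18 (SD, n = 3) in control. On MPP+ replicate 1, which had the highest MPP+ value, 0.39 ± 0.17 (SE over 10 spots), the median spot was 0.65, whereas on the other MPP+ arrays it lay just under 0.

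Txn1, thioredoxin, averaged 0.21 over the 8 arrays. It measured 0.49 and 0.20 on the Mn arrays, 0.71, -0.12 and 0.004 on the MPP+ arrays, and 0.05, 0.27 and 0.08 on the control arrays. The value of MPP+ replicate 1 was the highest of all 48 member means, and it rested on 1 spot at 5.35, with a median spot of 0.29 and an SE of 0.53. Both Mn arrays lay above control replicates 1 and 3, and Mn replicate 2 lay below control replicate 2. Means were 0.35 ± 0.21 in Mn (SD, n = 2), 0.20 ± 0.45 in MPP+ (SD, n = 3), beside 0.13 ± 0.12 (SD, n = 3) in control.

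Glrx, glutaredoxin, averaged 0.15 over the 8 arrays, the lowest of the members, with 1 of its 80 spots above background. It measured 0.18 and 0.36 on the Mn arrays, 0.20, 0.01 and 0.05 on the MPP+ arrays, and 0.51, -0.12 and 0.04 on the control arrays. The highest and the lowest of the 8 arrays were both control arrays, at 0.51 ± 0.12 and -0.12 ± 0.12 (SE over 10 spots), so the control group spanned every Mn and MPP+ value. Means were 0.27 ± 0.13 in Mn (SD, n = 2), 0.09 ± 0.10 in MPP+ (SD, n = 3), beside 0.14 ± 0.33 (SD, n = 3) in control.

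Hmox1, the inducible heme oxygenase, averaged 0.27 over the 8 arrays, the highest of the members, at the 93.3rd percentile, although 1 of its 80 spots was above background. It measured 0.27 and 0.25 on the Mn arrays, 0.32, 0.06 and 0.42 on the MPP+ arrays, and 0.36, 0.10 and 0.38 on the control arrays. MPP+ replicate 2 and control replicate 2 were low, and the groups overlapped throughout. Means were 0.26 ± 0.01 in Mn (SD, n = 2), 0.27 ± 0.19 in MPP+ (SD, n = 3), beside 0.28 ± 0.16 (SD, n = 3) in control, the closest of any member.

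**Figure D1:**
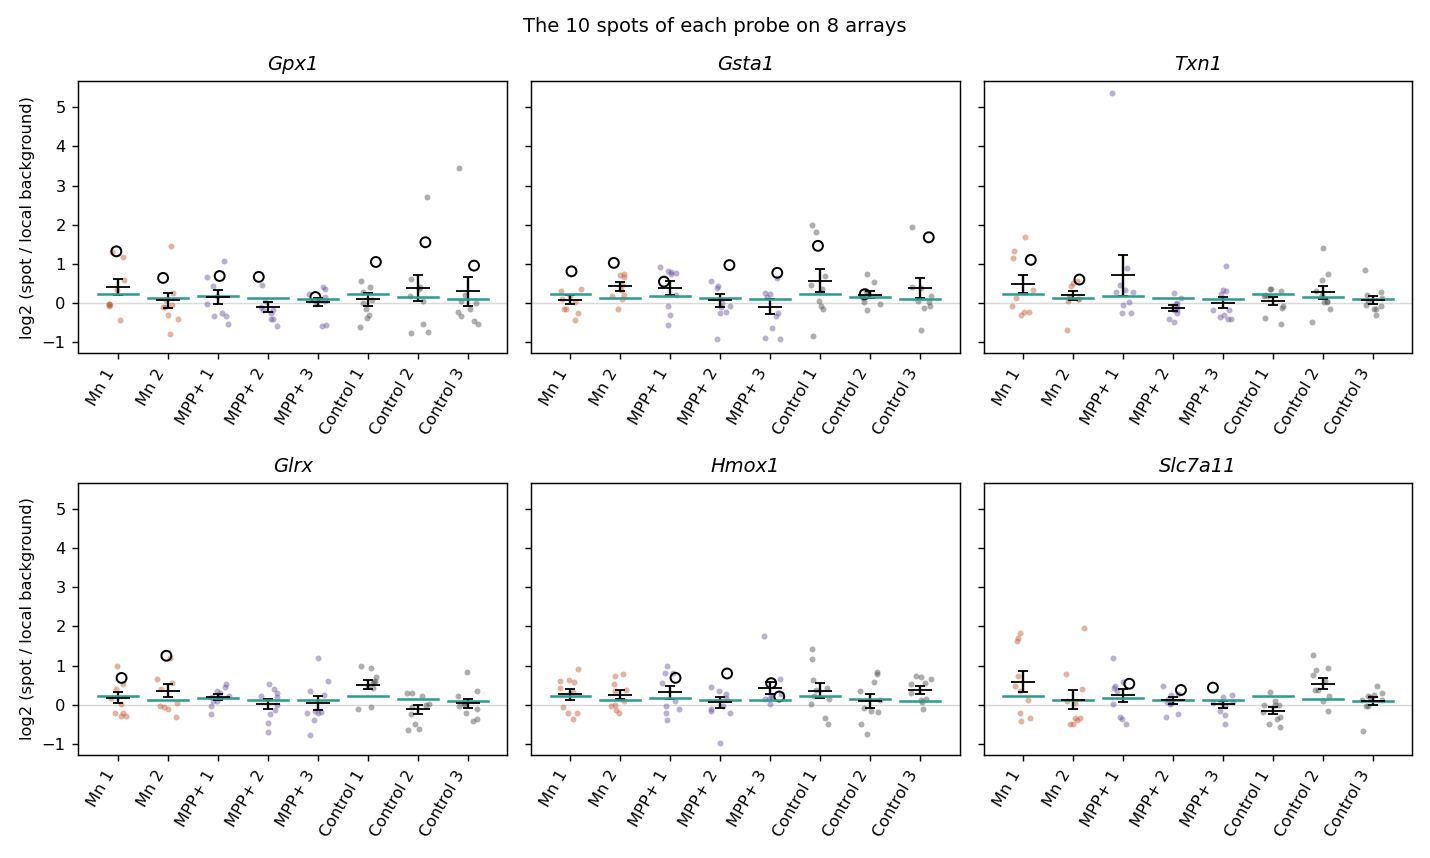
The log2 ratio of each spot to its local background (vertical axis) is plotted for the 10 spots of each member on the Mn, MPP+ and control arrays, with the mean and its SE over spots in black, the median of all ten-spot probes of the array as a green bar, and open circles for spots that match a value in the authors' deposited table. The spots of every member scatter on both sides of 0 on most arrays, and single bright spots, such as that of Txn1 at 5.35 on MPP+ replicate 1, lift some means.

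In order of their mean over the 8 arrays, the members ran Hmox1 (0.27), Gsta1 (0.26), Txn1 (0.21), Slc7a11 (0.20), Gpx1 (0.17) and Glrx (0.15). The SD over the arrays was 0.22 for Gsta1 and 0.18 for Gpx1, wider than the whole span of these means, so no neighbours in that order differed beyond their spread. Of the 48 means of 6 members on 8 arrays, 25 lay above the median ten-spot probe of their array. Means above the 95th percentile of their array numbered 4, namely Slc7a11 on Mn replicate 1 and on control replicate 2, Txn1 on MPP+ replicate 1 and Gsta1 on control replicate 1. Means below the 5th percentile also numbered 4, namely Gpx1 and Txn1 on MPP+ replicate 2, Slc7a11 on control replicate 1 and Glrx on control replicate 2. By construction 5% of all probes lie in each of these tails. Spots above background made up 20 of the members' 480 (4.17%), against 3.23% of all ten-spot gene spots. The mean over the 6 members was 0.29 ± 0.07 in Mn (SD, n = 2), 0.14 ± 0.17 in MPP+ (SD, n = 3), beside 0.23 ± 0.02 (SD, n = 3) in control, and the median of all ten-spot probes was 0.18 ± 0.06 in Mn, 0.14 ± 0.03 in MPP+ and 0.16 ± 0.07 in control.

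**Figure D2:**
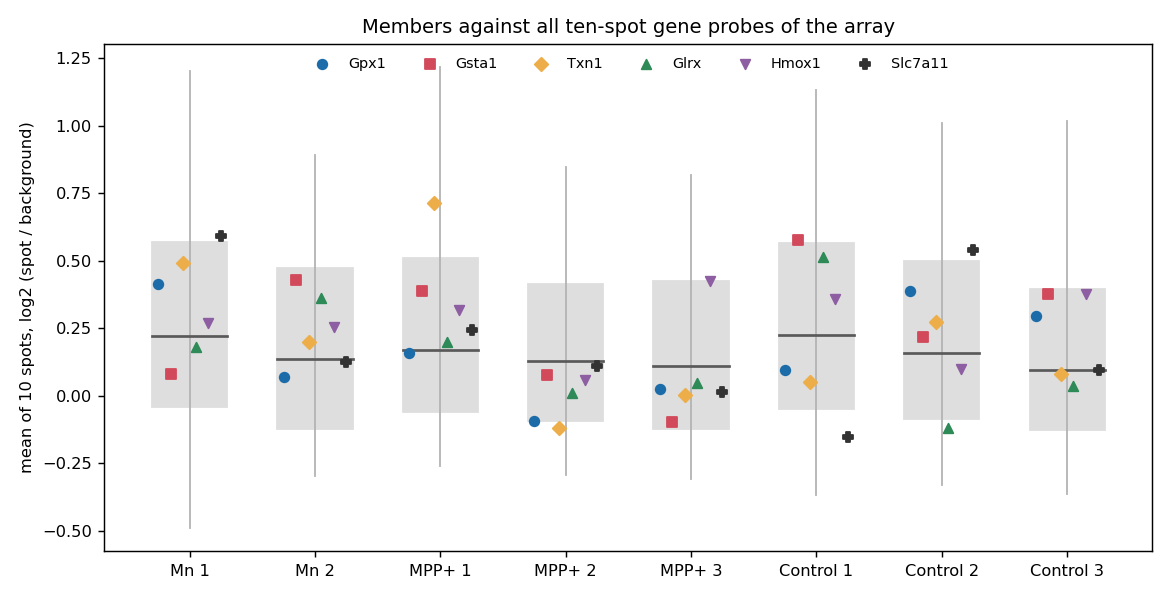
The mean of 10 spots (log2 spot over background, vertical axis) is plotted for each member on each array, over a grey box from the 5th to the 95th percentile of the 1390 ten-spot gene probes, a dark line at their median and a thin line from their lowest to their highest. The members lie across the box on every array, with 4 of 48 means above it and 4 below it.

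The SD over the 8 arrays ran from 0.13 for Hmox1 to 0.26 for Slc7a11 and 0.28 for Txn1. Across the 1390 probes the SD of 10-spot means averaged 0.176 over the arrays, and the SD expected from the scatter of spots within a probe (0.56 on average) alone also averaged 0.176. Differences between probes accounted for 0.099% of the variance of spots on average, from -0.33% to 0.68% on single arrays, where a negative estimate stands for less than spot scatter gives. With the brightest spot of each probe left out on every array, that share was 3.11% on average, from 2.36% to 3.77%. Leaving out each probe's own brightest spot caps the spots that remain at a level of that probe. The share can therefore rise without any difference between probes, and the size of that rise was not tested. Between arrays of one group, the correlation of probe means across the 1390 probes ran from -0.062 to 0.046 over 7 pairs, and between arrays of different groups from -0.041 to 0.054 over 21 pairs. These correlations are across probes that share their arrays and are given as descriptions. Slc7a11 on control replicates 1 and 2 and Txn1 on MPP+ replicates 1 and 2 are member examples of opposite placement within a group.

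**Figure D3:**
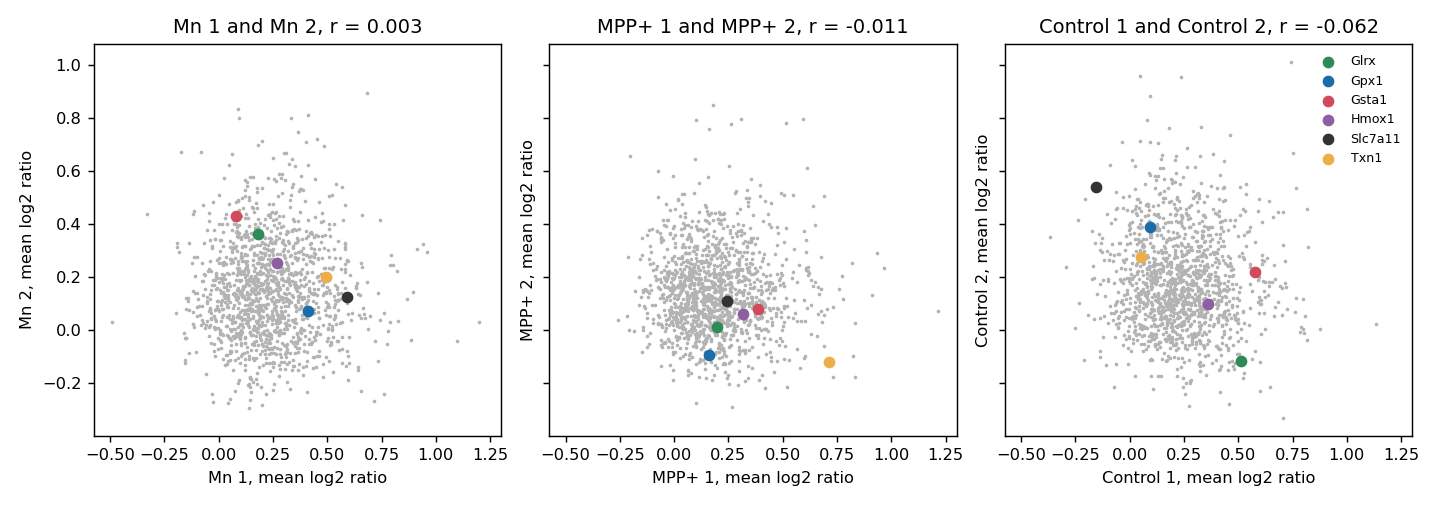
Each point is a ten-spot gene probe, placed by its mean log2 ratio on replicate 1 (horizontal axis) and replicate 2 (vertical axis) of Mn, MPP+ and control, with the members in colour. The clouds are round, with correlations across probes of 0.003, -0.011 and -0.062, and the members lie scattered through them.

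Setting Mn against control asks whether Mn exposure moved the methylation signal of these genes. Txn1 differed by 0.21 (95% interval -0.17 to 0.60), Slc7a11 by 0.20 (-0.17 to 0.57) and Glrx by 0.13 (-0.22 to 0.47), all as Mn minus control on the log2 scale. Gsta1 differed by -0.14 (-0.48 to 0.21), Gpx1 by -0.02 (-0.34 to 0.31) and Hmox1 by -0.02 (-0.34 to 0.31). All 6 intervals included 0. The 3 positive and 3 negative differences had a median of 0.05, beside a median of 0.02 over all ten-spot probes, of which 54.1% were positive. Among all 1390 probes limma called 0 at an adjusted p under 0.05 (0%), and 79 had an unadjusted p under 0.05. The Mn and control arrays overlapped for all 6 members, and 19.6% of the ten-spot probes had groups that did not overlap in either direction. With the shared array counted as Mn replicate 3 in place of control, the differences were 0.09 for Txn1, 0.08 for Slc7a11, -0.01 for Glrx, -0.10 for Gsta1, 0.02 for Gpx1 and 0.07 for Hmox1, so those of Txn1 and Slc7a11 shrank by over 1.5 times. Without that array they were 0.18 for Txn1, 0.16 for Slc7a11 and 0.07 for Glrx. limma called 0 of 1390 probes either way, with 69 probes under an unadjusted p of 0.05 when it was counted as Mn and 64 without it. The smallest adjusted p of any probe by limma was 0.335 with that array as control, 0.073 with it as Mn and 0.054 without it. The count of 0 was thus close to the threshold once that array was moved or left out. Single arrays moved these values: without Mn replicate 1 the difference was 0.06 for Txn1 and -0.04 for Slc7a11, and without Mn replicate 2 it was 0.36 and 0.43. Slc7a11 was at 0.04 without control replicate 1 and 0.39 without control replicate 2, Glrx at 0.31 and -0.005, and Gsta1 at -0.04 and -0.22, and Gsta1 was at 0.04 without Mn replicate 1 and -0.31 without Mn replicate 2. The summary over spots moved them as well. With the median of the 10 spots in place of the mean, Txn1 differed by 0.08, Slc7a11 by -0.05 and Glrx by -0.02. Gsta1 then differed by -0.002, Gpx1 by -0.04 and Hmox1 by 0.06.

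Setting MPP+ against control asks the same of MPP+, and the most negative member differences were those of the glutathione enzymes Gsta1 and Gpx1. Gsta1 differed by -0.27 (95% interval -0.58 to 0.04) and Gpx1 by -0.23 (-0.52 to 0.06), and both intervals included 0. They stood at the 3.81st and 6.76th percentile of the differences of all ten-spot probes, inside the range that holds the middle 95% of them (-0.29 to 0.24). Txn1 differed by 0.06 (-0.28 to 0.41), Glrx by -0.06 (-0.37 to 0.25), Slc7a11 by -0.04 (-0.37 to 0.29) and Hmox1 by -0.01 (-0.30 to 0.28). The members had 1 positive difference of 6 and a median of -0.05, beside 42.4% positive and a median of -0.03 over all ten-spot probes. limma called 0 of the 1390 probes here (0%), and 45 had an unadjusted p under 0.05. The MPP+ and control arrays overlapped for all 6 members, against 8.78% of ten-spot probes without overlap. Without control replicate 3, the array whose output is shared, Gsta1 differed by -0.27 (-0.64 to 0.09) and Gpx1 by -0.21 (-0.54 to 0.12). The smallest adjusted p of any probe by limma was then 0.087, against 0.995 with that array. Gsta1 was at -0.16 without MPP+ replicate 3, -0.18 without control replicate 1 and -0.40 without MPP+ replicate 1, and Gpx1 ran from -0.31 to -0.17 as arrays were left out. With the median of the 10 spots in place of the mean, Gsta1 differed by -0.05 and Gpx1 by -0.08.

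Setting Mn against MPP+ compares the toxicants directly. Slc7a11 differed by 0.24 (95% interval -0.13 to 0.61), Gpx1 by 0.21 (-0.11 to 0.54), Glrx by 0.18 (-0.16 to 0.53), Txn1 by 0.15 (-0.24 to 0.53) and Gsta1 by 0.13 (-0.21 to 0.48), as Mn minus MPP+, and Hmox1 by -0.01 (-0.33 to 0.32). All 6 intervals included 0. The 5 positive differences of 6 had a median of 0.17 over the members, beside 59.3% positive and a median of 0.04 over all ten-spot probes. limma called 0 of the 1390 probes (0%), while 68 had an unadjusted p under 0.05. The Mn and MPP+ arrays overlapped for all 6 members, and 21.5% of ten-spot probes had groups without overlap. These values rested on single Mn arrays. Without Mn replicate 1, Slc7a11 differed by 0.002, Gpx1 by 0.04 and Txn1 by -3.2e-05, and without Mn replicate 2 they differed by 0.47, 0.38 and 0.29. Gsta1 was at 0.31 without Mn replicate 1 and -0.04 without Mn replicate 2, and Glrx at 0.28 and 0.09. With the median of the 10 spots, Slc7a11 differed by -0.04 and Gpx1 by 0.04. Leaving out an MPP+ array moved Txn1 most, to 0.40 without MPP+ replicate 1 and -0.01 without MPP+ replicate 2. None of the 18 member differences lay outside the middle 95% of the differences of all ten-spot probes in its comparison, which share control, Mn or MPP+ arrays with one another. The number of arrays limits the precision, and the 95% interval of a typical probe reached 0.33 to each side in both comparisons with Mn and 0.29 in that of MPP+ against control.

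**Figure D4:**
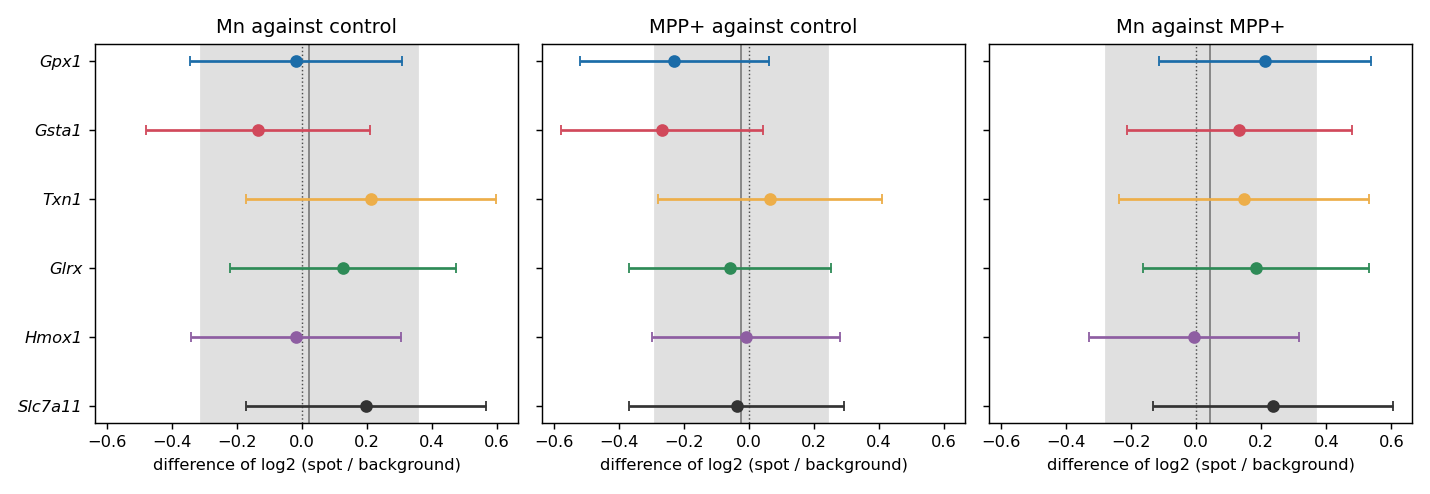
The difference in mean log2 ratio (horizontal axis) is plotted for each member with its 95% interval from limma, over a grey band that holds the middle 95% of differences of all 1390 ten-spot gene probes, with their median as a line and 0 dotted. All 18 intervals include 0, and the points of Gsta1 (-0.27) and Gpx1 (-0.23) in MPP+ against control lie nearest the edge of the band.

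In the columns of the 8 arrays used, the values in the authors' deposited table are the signal-to-noise ratio of 1 of the 10 spots of a probe, and over listed single-spot probes 100% of these values matched their own array. The Mn replicate 3 column of the authors' deposited table matched no scanner output given here, with 0% to 1.4% of 143 such values matching an array, and it was not used further. For the members that column of the authors' deposited table gives 1.17 for Gpx1, 2.26 for Gsta1, 2.59 for Txn1 and 2.71 for Glrx. The authors' deposited table lists Gpx1 and Gsta1 for Mn, MPP+ and control, Txn1 and Glrx for Mn alone, and Hmox1 and Slc7a11 for MPP+ alone. For Txn1 it gives 2.15 and 1.34 in Mn replicates 1 and 2, and for Glrx 1.98 and 3.9, in the authors' deposited table. For Hmox1 the authors' deposited table gives 2.29, 1.9 and 1.52 in the MPP+ replicates, and for Slc7a11 2.3, 1.61 and 1.88. Being listed for a treatment and not for control is common, since of 1241 ten-spot probes in the authors' deposited table, 388 are listed for Mn and not control and 402 for MPP+ and not control. For Gsta1 the authors' deposited table gives 2.29 and 4.22 in Mn, 1.75, 2.5 and 1.67 in MPP+, and 3.97, 1.73 and 3.12 in control. For Gpx1 the authors' deposited table gives 4.54 and 1.41 in Mn, 1.85, 1.64 and 1.12 in MPP+, and 3.09, 2.69 and 2.4 in control.

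Of the member values in the authors' deposited table, 25 matched exactly 1 spot of their array, within a tolerance of 0.006. The value of Hmox1 on MPP+ replicate 3 matched 2 spots and was left out of the comparison with the other 9. Both of those spots count as matched in the test on unmatched spots below. The matched spot was brighter than the mean of the other 9 spots in 25 of 25 cases, by 0.01 to 1.45 with a median of 0.68 on the log2 scale. Over all listed ten-spot probes the same held for 5537 of 5794 values, with a median of 0.67, so the members were like the rest. The matched spot of Gsta1 on control replicate 3 was at 1.68, and its other 9 spots averaged 0.23. That of Gpx1 on control replicate 2 was at 1.55, with 0.26 for the other 9. Glrx on Mn replicate 2 showed 1.25 beside 0.26, and Txn1 on Mn replicate 1 showed 1.1 beside 0.42. The matched spot ranked highest of the 10 by signal-to-noise in 6 of the 25 cases and among the top 3 in 15.

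The same spot was not matched from array to array for most probes. For Gsta1 all 3 control arrays matched one spot and both Mn arrays another, and for Txn1 both Mn arrays matched one spot, whereas Gpx1 matched a different spot on each control array. Over all ten-spot probes, 2 arrays of a group matched the same spot in 8.58% to 11.9% of probes, where picking 1 of 10 spots at random gives 10%. Over these probes the matched spot averaged 0.68 to 1.16 per array, and the other 9 averaged 0.08 to 0.19.

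**Figure D5:**
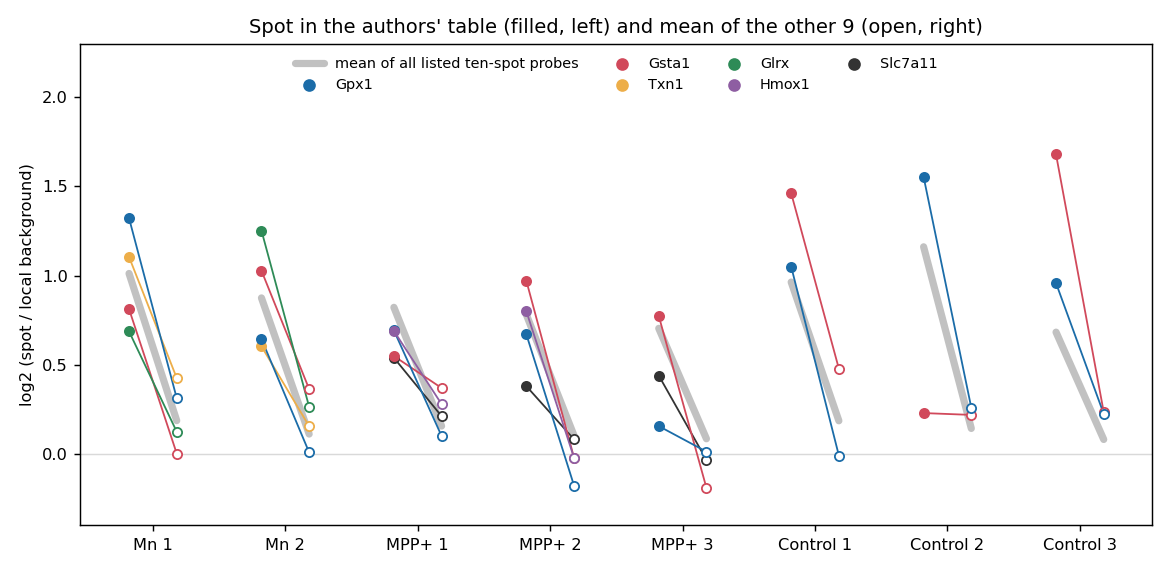
For each member value in the authors' deposited table that matches 1 spot, the log2 ratio of that spot (filled, left) is joined to the mean of the other 9 spots (open, right) on the same array, with the mean over all listed ten-spot probes in grey. All 25 lines run downward, by 0.01 to 1.45.

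To test the members on spots outside the table they were chosen by, every spot position that the authors' deposited table matched on any array was removed from all arrays. This left 4 spots for Gpx1, 5 for Gsta1, 9 for Txn1, 8 for Glrx, 7 for Hmox1 and 7 for Slc7a11. The removed spots were mostly brighter than the rest on the arrays where they were matched, so the spots left are not a random draw from the 10. Matched spots of Txn1 and Glrx lay on Mn arrays alone, and those of Hmox1 and Slc7a11 on MPP+ arrays alone. For these genes the removal took spots that were bright in the group the gene is listed for. The tests on the spots left are therefore not independent of how the members were chosen. On these spots Gpx1 averaged 0.39 ± 0.05 in Mn (SD, n = 2), beside a control mean of -0.07 ± 0.13 (SD, n = 3). That is a difference of 0.45 on the log2 scale, against -0.02 over all 10 spots. The Gpx1 spots removed included those at 2.70 on control replicate 2 and 3.46 on control replicate 3. These bright control spots were not matched on their own arrays and left because their positions were matched on other arrays. Gsta1 in MPP+ against control differed by -0.02 on the unmatched spots, against -0.27 over all 10. The differences of Gpx1 and Gsta1 between each treatment and control thus depended on which spots were averaged. limma's adjusted p over all 1390 probes ran from 0.978 to 0.999 for the 18 member differences on the unmatched spots, and 1 of them, that of Gpx1 in Mn against control, had an unadjusted p under 0.05. limma called 0 of the 1390 probes in any comparison on these spots, while 69 in Mn against control, 39 in MPP+ against control and 60 in Mn against MPP+ had an unadjusted p under 0.05. Two-sided exact permutation tests over arrays gave p from 0.2 in Mn against control, 0.7 in MPP+ against control and 0.4 in Mn against MPP+ upward, and 1 for all 18 after Benjamini-Hochberg adjustment. The smallest p these group sizes allow is 0.2 in both comparisons with Mn and 0.1 in MPP+ against control, so the permutation tests could not pass 0.05. Where p-values miss the threshold, equal methylation in the groups is not shown.

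Of the other antioxidant, glutathione and metallothionein genes listed for comparison, 7 had a ten-spot probe, namely Glrx3, Glrx5, Gsr, Msrb2, Me1, Mt2A and Mtf1. limma called 0 of them in any comparison. In Mn against control 2 of 7 were positive, with a median of -0.08. Mt2A, a metallothionein that binds metals, was the highest of the 7 there, averaging 0.39 ± 0.03 in Mn (SD, n = 2), beside a control mean of -0.05 ± 0.19 (SD, n = 3). Its difference was 0.44 with an adjusted p of 0.874 by limma, and Glrx3, a glutaredoxin, was the lowest at -0.17. Mtf1, the other ten-spot gene of the metallothionein list, differed by -0.06. In MPP+ against control 1 of 7 was positive, with a median of -0.17. Msrb2, a methionine sulfoxide reductase, was the lowest there, averaging -0.12 ± 0.10 in MPP+ and 0.19 ± 0.12 in control (SD, n = 3 each), a difference of -0.31 with an adjusted p of 0.995 by limma, and Mt2A was the highest at 0.19. In Mn against MPP+ 6 of 7 were positive, with a median of 0.10, and Msrb2 was the highest at 0.49 (adjusted p of 0.893 by limma). Gsr, glutathione reductase, was the lowest at -0.004.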

How the data were processed

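DNA methylation was measured on 9 arrays in 3 groups. The authors deposited 1 scanner output per array; per the file headers, spot and background intensity are on a linear scale, beside the percent of saturated pixels and a signal-to-noise score. Per the labels, ScanArray software was used, in a version no source here gives. The authors also deposited a table that holds, for each listed probe and array, a signal-to-noise ratio of a single spot, matched here within 0.006. From the deposited intensity values, log2(spot median / background median) was computed and averaged over the 10 spots of each probe, with no centring. R 4.3.3 with limma 3.58.1 fitted group means over 8 arrays and all 1390 ten-spot gene probes (eBayes, Benjamini-Hochberg at 0.05), with no filter on low values, so all 6 members were tested. It was tested on simulated data. Probe accessions were matched to RefSeq. Other values and the plots came from python 3.11.15 with scipy 1.17.1, pandas 2.3.3, matplotlib 3.10.9 and numpy 2.4.6. The members, lists and tests were chosen with earlier results of these data known. Genes named were the members, the other listed genes with the highest and lowest difference per comparison, probes past the threshold, and the 3 probes most like the members' mean. p-values measure the spread between arrays. Alternatives changed the summary over spots, background correction, scaling, filter, blocks, variance model and arrays.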

Additional observations from a re-analysis of the deposited data

How the results depend on the processing

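The count of ten-spot probes called by limma stayed at 0 in each comparison under all settings run but one. Where every group kept at least 2 arrays, 38 to 85 of 1390 probes had an unadjusted p under 0.05. In the fit of the brighter 695 probes, 22 to 41 did. Leaving out each array in turn gave 0 to 2 calls in Mn against control, 0 to 2 in Mn against MPP+ and 0 in MPP+ against control. The 2 calls came without Mn replicate 2, where the lone Mn array is assumed to vary like the other groups. They were Lto1 and a probe without a symbol, at 1.1 and 1.2 on Mn replicate 1 and -0.04 and 0.03 on Mn replicate 2. With the replicate number as a block, 0 probes were called in each comparison, and 75 probes in Mn against control, 54 in MPP+ against control and 75 in Mn against MPP+ had an unadjusted p under 0.05. Same-numbered arrays did not deviate together (correlations from -0.033 to 0.063 over 7 pairs), and the labels do not say that a number marks a shared day. Of 411 alternative values of the 18 member differences, 0 passed an adjusted p of 0.05 by limma. In size, 401 moved by less than 1 residual SD, 10 by more, and 52 turned sign. Some settings could not move a difference, such as another variance model, the brighter probes alone, or leaving out an array of the group not compared. The 401 therefore include values that were fixed in advance. Gpx1 in Mn against control ran from -0.19 without Mn replicate 1 to 0.45 on the unmatched spots, and was 0.15 without Mn replicate 2. Slc7a11 in Mn against MPP+ was -0.04 with the median of spots. On Mn replicate 2 its brightest spot was at 1.95, its mean at 0.12 and its median at -0.14. Its mean and median were 0.59 and 0.42 on Mn replicate 1, and 0.24 and 0.39 on MPP+ replicate 1. Why single spots were bright was not tested. With the brightest spot of each probe left out on every array, differences between probes made up 3.11% of spot variance, against 0.099%. Such trimming can raise this share by itself, so the rise does not show a signal of the probes. The scanner output of MPP+ replicate 3 and control replicate 3 holds 2 channels and that of both Mn arrays used holds 1. Channel number is thus unbalanced in both comparisons with Mn. Those 2-channel arrays had the lowest median ten-spot probes, 0.11 and 0.09. With channel number as a block, the median difference over all probes was -0.004 in Mn against control and 0.02 in Mn against MPP+. Without the block it was 0.02 and 0.04. The fit on 1-channel arrays was added after seeing the data. Glrx was not among the 695 brighter probes of one fit. Spots could not be left out by quality code, whose meaning is not stated. The array count and spots near background limit all values.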

Other observations

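Single-spot probes of the antioxidant lists were mostly near background. Of 712 spots of 89 single-spot probes, which stand for 82 genes, 27 were above background (3.79%), against 3.19% of all single-spot gene probes. Those above background on 2 of the 8 arrays numbered 6 (6.74%, against 2.62% of all single-spot probes on at least 2 arrays), and none reached 3. They were the soluble glutathione transferases Gstm2, Gstm3 and Gstt2, the microsomal Mgst1 and Mgst2, and the glutathione-dependent prostaglandin D synthase Hpgds, named after their values were seen. Mgst1 was above background on Mn replicate 1 and MPP+ replicate 1, Gstm3 on Mn replicate 1 and MPP+ replicate 2, and Hpgds on Mn replicate 1 and MPP+ replicate 3. Mgst2 was above background on Mn replicate 1 and control replicate 2, Gstm2 on MPP+ replicate 2 and control replicate 2, and Gstt2 on MPP+ replicate 2 and control replicate 3. Of the 8 arrays, Mn replicate 1 had the highest share of blank spots above background, 4.49%.

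The ten-spot genes whose profile over the 8 arrays was most like the mean of the members were Skic8 (r = 0.945), Nfat5 (r = 0.944) and Odf1 (r = 0.932), picked as the highest of 1178 candidates. The members' own profiles correlated with each other by -0.49 to 0.74 over 15 pairs, with a median of 0.09 over the same 8 arrays. The arrays of replicate 3 carry another channel whose content the labels do not state. In that channel the members ran from 0.02 to 0.21 on the log2 scale on MPP+ replicate 3 and from -0.28 to 0.21 on control replicate 3, and the lowest value there, that of Gsta1, had an SE of 0.17 over its 10 spots.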
